A study of Mus musculus with 6 samples.

Results

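The Atg5 conjugation system is the set of proteins that attach ubiquitin-like ATG8 proteins, such as LC3, to the membrane of a forming autophagosome and take them off again. Its members here are 10 genes taken by symbol from the 24982 rows of the authors' deposited table: Atg5, Atg12, Atg16l1, Atg16l2, Atg7, Atg3, Atg10, Atg4b, Atg4c and Atg4d. RNA was sequenced from mouse cumulus granulosa cells, the somatic cells that surround the oocyte, of the outbred Kun-Ming stock. The groups were 3 Atg5-KD libraries, from cells given short hairpin RNAs against Atg5, and 3 control libraries. The sources used here give neither what the control cells received nor the age of the animals, any pooling or the hairpin sequences. Whether the 3 libraries of a group go back to different cultures or mice is not labelled. The p-values therefore rest on scatter between these libraries, and that scatter may be technical. The deposited fold changes were taken as Atg5-KD over control because the table's name puts the knockdown first, and every statement of higher or lower rests on that reading.

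In this system ATG7 works like the E1 enzyme of ubiquitin and activates both ATG12 and the ATG8 proteins. ATG10, an E2-like enzyme, passes ATG12 to ATG5, and the resulting conjugate joins ATG16L1 at the membrane, where it acts like an E3 ligase for the second E2-like enzyme, ATG3, which links ATG8 proteins to phosphatidylethanolamine. Proteases of the ATG4 family trim new ATG8 proteins and release the lipid-bound ones. Much of this system is controlled after transcription, through the conjugates themselves, which RNA sequencing does not measure.

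The authors' deposited table gives a base mean (the average of all libraries' counts, each scaled by its size factor), a log2 fold change with its standard error, and a DESeq2 Wald test, but no column per library. Whole read counts of each library were worked out from it for the 10 genes. Rows holding a single read show what 1 read is worth in each of the 6 libraries, and for each gene exactly 1 set of whole counts gave both the deposited base mean and the deposited fold change. The libraries recovered in this way carry a group but no replicate number, so the Atg5-KD libraries are called X, Y and Z and the control libraries A, B and C. Size factors were 0.703 to 0.805 in the Atg5-KD libraries and 1.27 to 1.37 in the control libraries. Estimated depths were 11300000 to 12900000 reads in the Atg5-KD libraries and 16500000 to 17900000 reads in the control libraries. The ribosomal RNA locus Rn45s took an estimated 17.9% of reads in the Atg5-KD libraries and 1.17% in the control libraries.

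Markers of the labelled cell type ranged from low to abundant. Their base means ran from 2.34 for Cyp19a1, which was not tested, and 6.07 for Amh to 24380 for Inhba and 30060 for Inha. The 12 granulosa markers summed to an estimated 69790 normalized counts in Atg5-KD and 65050 in control, with Inha, a subunit of inhibin, the highest, and none was at 0. Of these the authors' deposited table called Nr5a2, Kitl and Inhba higher and Foxl2 and Fst lower, which became 2 higher and 5 lower when scaled to all reads (Inhba not called) and 4 higher and 1 lower with the trend over GC content and length removed (Foxl2 not called). Leukocyte markers summed to 565 in Atg5-KD and 2254 in control. The authors' deposited table called 9 of the 12 lower (Lyz2, Laptm5, C1qa, C1qb, C1qc, Csf1r, Cd68, Tyrobp and Adgre1), at log2 fold changes between -3.66 and -1.09. Theca and stroma markers summed to 3710 in Atg5-KD and 6955 in control. Of the 7 tested, 6 were called lower in the authors' deposited table (Col1a1, Col1a2, Ogn, Tcf21, Lum and Pdgfra). Cyp17a1, also on this list, had a base mean of 0.131 and was not tested. Oocyte markers, of which Gdf9 was highest, summed to 75.2 in Atg5-KD and 65.4 in control, with 0 of the 5 tested called in the authors' deposited table (0 at an unadjusted p under 0.05). None of the 40 markers had a base mean of 0. In bulk RNA, fewer cells of a type and less RNA per cell cannot be told apart, and the part of these shifts in the results for the conjugation genes was not tested.

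Atg5, the target of the hairpins, did not differ between the groups beyond the spread of the libraries. It had 386.5, 408.4 and 395.6 normalized counts in Atg5-KD libraries X, Y and Z, against 350.4, 462.0 and 429.7 in control libraries A, B and C. The Atg5-KD values lay inside the range of the control values, whose lowest library was below every Atg5-KD library. In whole reads these were 311, 320 and 278 in Atg5-KD and 480, 619 and 545 in control, before the difference in depth is taken out. Mean levels were 396.8 ± 11.0 normalized counts in Atg5-KD and 414.0 ± 57.4 in control (SD, n = 3 each). The authors' deposited table gives Atg5 a log2 fold change of -0.06 (standard error, SE, 0.14; Wald adjusted p = 0.822). An exact two-sided permutation test on the normalized counts gave p = 0.7, where 0.1 is the smallest p that 3 libraries against 3 allow. At its standard error, the log2 fold change of Atg5 would have been called from 0.36 in either direction, which as a fall is 22.0%. Leaving out control library B turned its sign, to a log2 fold change of 0.03, and leaving out control library A gave -0.17. The transcript of the target thus gave no check on either the labels or the sign of the deposited differences.

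In GRCm38.p6, the assembly known as mm10, Atg5 (gene 11793) spans 44268322 to 44364299 on the plus strand of chromosome 10, with 8 exonic blocks that add up to 2352 bases in GENCODE M21. No other annotated gene shares exonic bases with it. RefSeq promoter sequences of the same assembly were held for 8 of the 10 genes, all except Atg12 and Atg16l1. The letters CACGTG, the palindrome read by basic helix-loop-helix factors such as TFEB, a regulator of autophagy and lysosome genes, stood in the 250 bases before the RefSeq start of 3 of the 8, namely Atg5, Atg7 and Atg3. These starts need not be the outer ends of the genes: the one used for Atg5 lies 17 bases inside the gene as given above, that for Atg7 lies 27969 bases inside, within the annotated gene, and that for Atg3 is the gene's own start. The matches of Atg5 and Atg7 thus lie inside the annotated genes, and only those of Atg3 lie before the gene. The same letters stood before 9.71% of the 11465 tested genes with a promoter sequence and in 6.02% of all 32851 promoter sequences. The matches are printed because the target shares these letters with the E1-like gene Atg7 and the E2-like gene Atg3, whereas the window of Atg10, the other E2-like gene, did not hold them, with the motif in capitals and up to 12 bases on either side.
Atg5, chr10:44268313-44268338, plus strand: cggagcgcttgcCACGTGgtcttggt
Atg7, chr6:114670952-114670981, plus strand: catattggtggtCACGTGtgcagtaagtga
Atg3, first match, chr16:45158723-45158752, plus strand: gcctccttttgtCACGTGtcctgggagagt
Atg3, second match, chr16:45158746-45158775, plus strand: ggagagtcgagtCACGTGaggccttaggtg
These are matches of letters and not measured binding sites. Letters of the interferon-stimulated response element (GAAA, any 2 bases, GAAA), searched on both strands of the same windows, were found in 0 of the 8, against 3.10% of tested genes and 2.98% of all promoter sequences.

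**Figure D1:**
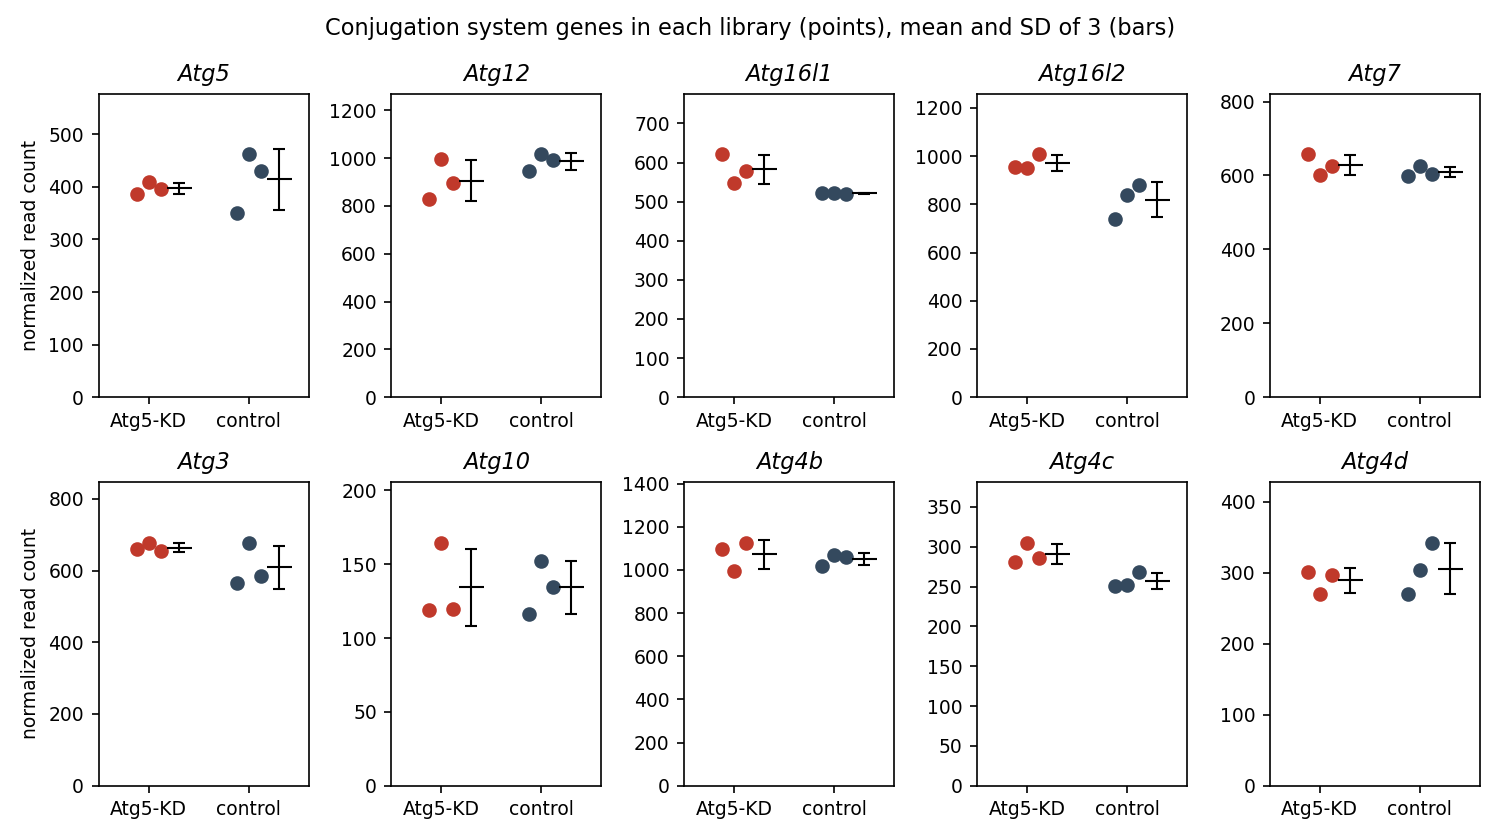
Normalized read counts (vertical axes, from 0) of the 10 conjugation system genes in each library, Atg5-KD to the left of control in every panel, with a bar for the mean and SD of 3 libraries. Atg5 ranges from 386.5 to 408.4 in Atg5-KD and from 350.4 to 462.0 in control. Only Atg16l1, Atg16l2 and Atg4c have groups that do not overlap, and the share of all tested genes without overlap was not worked out.

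Atg12, the ubiquitin-like protein that is joined to ATG5, had 827.6, 995.4 and 893.8 normalized counts in the Atg5-KD libraries, against 947.5, 1016.0 and 993.4 in the control libraries. Libraries X and Z were below every control library, while library Y lay within the control range. The authors' deposited table gives a log2 fold change of -0.12 (SE 0.11; Wald adjusted p = 0.480). With the trend over GC content and length removed it stood at -0.29 (Wald adjusted p = 0.0570), the lowest value of the 10 there. Atg12 lies on chromosome 18, on the minus strand. The ratio of Atg5 to Atg12 normalized counts was 0.440 ± 0.0285 in Atg5-KD and 0.419 ± 0.0440 in control (SD, n = 3 each; exact two-sided permutation p = 0.6), so the proportion of the transcripts of both conjugate partners differed by less than the spread between libraries.

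Atg16l1 and Atg16l2 are the ATG16-like partners of the conjugate. ATG16L1 carries it to the membrane, and ATG16L2 is a paralogue that also binds ATG5. Atg16l2 (chromosome 7, 101286325 to 101302267) had 954.4, 952.0 and 1008.0 normalized counts in the Atg5-KD libraries, against 740.9, 840.4 and 879.0 in the control libraries. Every Atg5-KD library stood above every control library, the closest pair being Y and C. The authors' deposited table gives 0.24 with a standard error of 0.11 on the log2 scale, a 1.18-fold difference (Wald p = 0.0254, adjusted p = 0.0982), which missed the threshold of 0.05. Its 95% interval, 0.03 to 0.46, was the only one of the 10 that did not span 0. With the trend of fold change over GC content and length removed, Atg16l2 was called higher at a log2 fold change of 0.30 (Wald adjusted p = 0.0430), and scaled to all reads it stood at -0.05 (adjusted p = 0.723).

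Atg16l1 (chromosome 1, 87756007 to 87792428) had 621.3, 548.7 and 577.8 normalized counts in the Atg5-KD libraries, against 521.9, 522.4 and 520.3 in the control libraries. The coefficient of variation of the control values was 0.210%, the smallest of the 10. The groups did not overlap. The log2 fold change of the authors' deposited table was 0.16 (SE 0.11; Wald adjusted p = 0.356). The dispersion behind that standard error corresponds to a spread between libraries of 8.76%. That is above the coefficients of variation of the gene's own values, 6.27% in Atg5-KD and 0.210% in control. The ratio of Atg16l2 to Atg16l1 was 1.67 ± 0.118 in Atg5-KD and 1.57 ± 0.139 in control (SD, n = 3 each; exact two-sided permutation p = 0.5).

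The enzymes that activate and transfer the ubiquitin-like proteins did not pass the authors' test. Atg7 (chromosome 6, 114643127 to 114860604), the E1-like enzyme of both branches, had 657.4, 602.3 and 626.2 normalized counts in the Atg5-KD libraries, against 598.6, 624.7 and 604.7 in the control libraries. Library X was the highest of the 6 and the other 5 lay close together. The authors' deposited table gives a log2 fold change of 0.05 (SE 0.11; Wald adjusted p = 0.833).

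Atg3 (chromosome 16, 45158829 to 45188538), which hands ATG8 proteins to the lipid, had 659.9, 677.6 and 653.2 normalized counts in the Atg5-KD libraries, against 565.0, 676.9 and 585.0 in the control libraries. Control library B was as high as the Atg5-KD libraries and the other control libraries were lower. The log2 fold change of Atg3 came to 0.12 (standard error 0.12) by the authors' deposited table (Wald adjusted p = 0.512).

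Atg10 (chromosome 13, 90935348 to 91224725), which hands ATG12 to ATG5, had the lowest base mean of the members, with 119.3, 164.6 and 119.5 normalized counts in the Atg5-KD libraries, against 116.1, 152.2 and 134.8 in the control libraries. One library in each group was high, Y in Atg5-KD and B in control. The authors' deposited table puts Atg10 at 0.00 on the log2 scale (standard error 0.21, Wald adjusted p = 0.995), with the widest interval of the 10. It rests on 309 reads in the Atg5-KD libraries and 534 in the control libraries, and an estimated fall of under 30.6% would not have been called.

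The ATG4 proteases also did not pass the test. Atg4b (chromosome 1, 93754905 to 93789606), the family's main protease for LC3, had the highest base mean of the members, with 1096.0, 996.6 and 1126.0 normalized counts in the Atg5-KD libraries, against 1018.0, 1070.0 and 1062.0 in the control libraries. The control values lay inside the Atg5-KD range. The authors' deposited table gives Atg4b a log2 fold change of 0.03 (SE 0.10; Wald adjusted p = 0.882).

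Atg4c (chromosome 4, 99189159 to 99297258) had 280.8, 305.0 and 286.1 normalized counts in the Atg5-KD libraries, against 250.4, 251.5 and 268.0 in the control libraries. All 3 Atg5-KD libraries stood above all 3 control libraries. By the authors' deposited table the log2 fold change was 0.18 (SE 0.14; Wald adjusted p = 0.409).

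Atg4d (chromosome 9, 21265205 to 21274837) had 300.7, 269.3 and 297.4 normalized counts in the Atg5-KD libraries, against 270.1, 303.8 and 342.2 in the control libraries. The groups overlapped, with control library C the highest. On the log2 scale the authors' deposited table gives -0.08 (SE 0.15; Wald adjusted p = 0.783). In GENCODE M21, 19.3% of the exonic bases of Atg4d also belong to Kri1 on the opposite strand, and since it is not given whether counting used strand, reads of both genes in those bases cannot be told apart. Atg16l2 shares 25 exonic bases with Fchsd2, and the other 8 members share none with another gene.

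The fourth protease of the family, Atg4a on the X chromosome, is not one of the 10. It had 188.9, 250.1 and 187.9 normalized counts in the Atg5-KD libraries, against 148.9, 170.2 and 186.8 in the control libraries. The groups came close without overlapping, and the authors' deposited table gives a log2 fold change of 0.31 (SE 0.18; Wald adjusted p = 0.229).

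**Figure D2:**
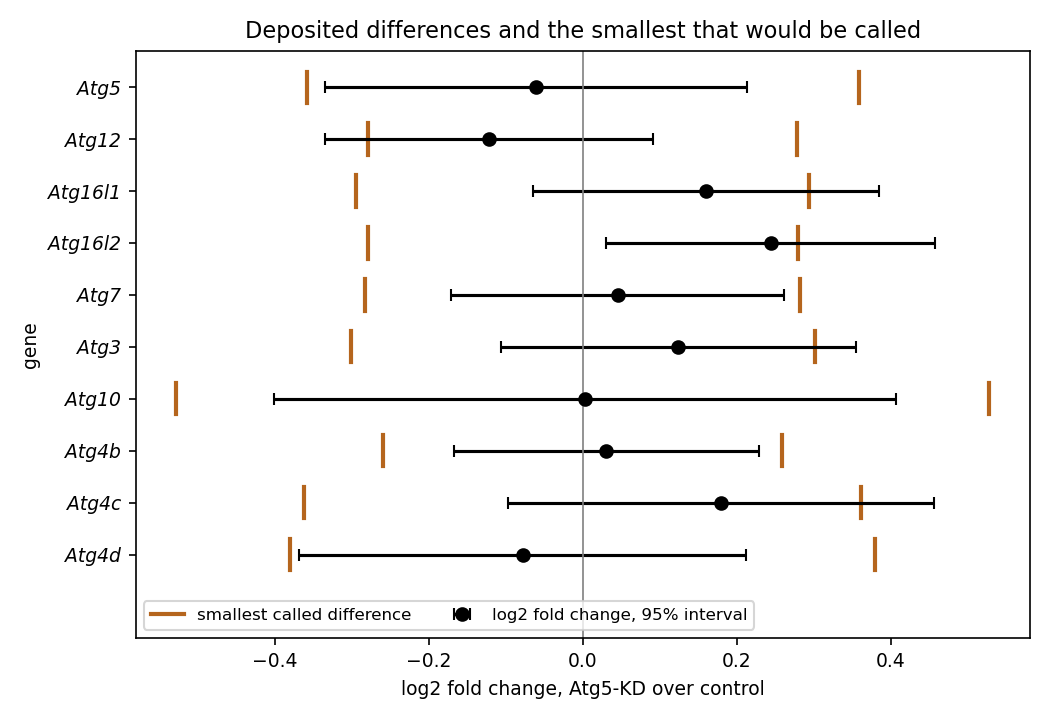
Log2 fold change of Atg5-KD over control with its 95% interval for each gene (horizontal axis), and brown ticks at the smallest difference that would have been called at the gene's standard error. No point reaches its ticks; Atg16l2 at 0.24 comes closest to its limit of 0.28, and Atg10 has the widest limits at 0.53.

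As a group, 0 of the 10 genes were called higher and 0 lower by the Wald test of DESeq2 in the authors' deposited table, where 20.9% of all 14835 tested genes were called, 10.4% higher and 10.5% lower. Without adjustment, a Wald p under 0.05 was reached by 1 of the 10 genes, Atg16l2, on the higher side. Of all 14835 tested genes, 2317 reached it on the higher side and 2357 on the lower. The median log2 fold change of the 10 in the authors' deposited table was 0.04, against 0.00 over all tested genes, with 7 above 0 and 3 below. Their median distance from 0 was 0.10, against 0.23 over all tested genes. All 10 passed the authors' filter on low means, at base means of 134 to 1061, which is the 34.3th to 79.2th percentile of tested genes. The smallest estimated fold that would have been called ran from 1.20 for Atg4b to 1.44 for Atg10. These are limits on the estimates and not on the true changes.

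Counting error was a small part of the uncertainty. The total reads behind a gene ran from 309 to 2454 in the Atg5-KD libraries and from 534 to 4175 in the control libraries. The deposited standard errors were 1.97 to 2.78 times what counting error alone would give. For Atg5, with 909 reads in Atg5-KD and 1644 in control, counting alone would give a standard error of 0.06 on the log2 scale, against 0.14 as deposited. Exact two-sided permutation tests on normalized counts reached their smallest possible p of 0.1 for Atg16l1, Atg16l2 and Atg4c, and gave larger values for the other 7. Groups did not overlap for these 3 of 10 members. Exchange of labels alone gives this for a gene with a probability of 0.1. The share of all tested genes without overlap was not worked out. By another measure, the deposited test called 20.9% of all tested genes and none of the 3.

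The number of members called changed with the scale of the comparison. The deposited fold changes are relative to the size factors. The total of all reads includes Rn45s, which took an estimated 17.9% of reads in Atg5-KD and 1.17% in control. The difference in Rn45s therefore enters any shift on the scale of all reads. How much of that shift remains without Rn45s was not worked out. Scaling to all reads instead of the size factors moved every log2 fold change by -0.30. On that scale Atg5 stood at -0.36 (Wald adjusted p = 0.0269), Atg12 at -0.42 (adjusted p = 0.000545), Atg4d at -0.38 (adjusted p = 0.0289) and Atg4b at -0.27 (adjusted p = 0.0222). These 4 of 10 were called lower and 0 higher, where the same scale called 38.7% of all tested genes lower and 3.6% higher. The members' median was then -0.26, against -0.29 over all tested genes, so relative to that shift their median stood slightly above that of all genes.

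Other readings of the table gave few or no calls among the 10. With the trend over GC content and length removed 1 was called higher and 0 lower, where 6.44% of genes were called higher and 7.23% lower. At a threshold of 0.1 on the deposited adjusted p, 1 was called higher and 0 lower, where 12.9% were called higher and 13.1% lower. The count was 0 in both directions with p-values adjusted over every row that has one (15.1% of genes called), with a base mean of at least 50 (25.9% called), at a threshold of 0.01 (13.9% called) and with fold changes centred on the median (21% called). Each of these 4 Wald tests had 1 member, Atg16l2, at an unadjusted p under 0.05, on the higher side. In the same order, 2379 of 19241, 1979 of 11296, 2317 of 14835 and 2272 of 14835 genes reached it on that side.

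**Figure D3:**
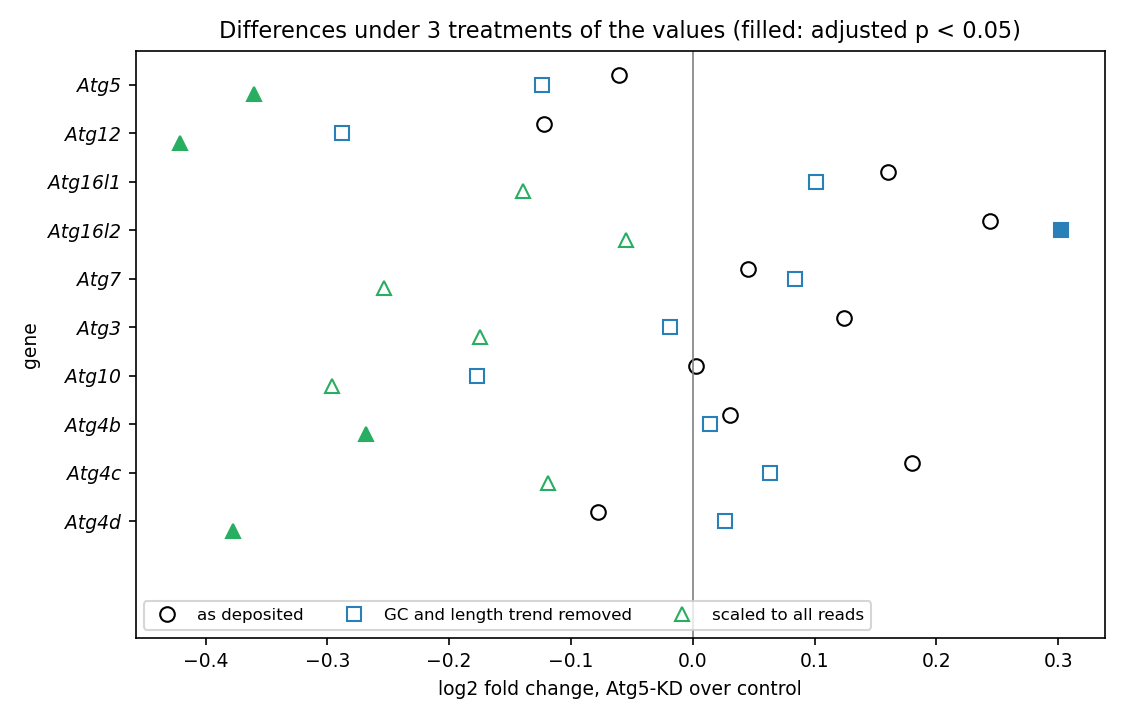
Log2 fold change of Atg5-KD over control (horizontal axis) of each gene as deposited, with the trend over GC content and length removed, and scaled to all reads; filled marks have an adjusted p under 0.05. As deposited no mark is filled, removal of the trend fills Atg16l2 at 0.30, and scaling to all reads moves every gene left and fills Atg5, Atg12, Atg4b and Atg4d.

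Levels of different genes were compared per exonic kilobase, with lengths from GENCODE M21. Atg3 stood highest, at 210.4 ± 3.997 normalized reads per kilobase in Atg5-KD and 193 ± 18.9 in control (SD, n = 3 each). Atg5 came next, at 169 ± 4.68 per kilobase in Atg5-KD and 176 ± 24.4 in control. The library ranges of Atg3 and Atg5 did not overlap in Atg5-KD but did in control. Atg4b, Atg12 and Atg16l2 followed between 115 and 130 in Atg5-KD and between 96.8 and 128 in control, and Atg4b and Atg12 overlapped in both groups.

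Lower down, Atg7 was at 90.2 per kilobase in Atg5-KD and 87.4 in control, Atg4c at 86.7 in Atg5-KD and 76.6 in control, and Atg10 at 78.3 in Atg5-KD and 78.2 in control, and neighbours among these 3 overlapped. Atg16l1 was at 60.5 per kilobase in Atg5-KD and 54.2 in control. Atg4d was lowest, at 39.8 in Atg5-KD and 42.0 in control, below every library of Atg16l1. With the longest transcript as the length, Atg3 remained first and Atg4d last among the 10, Atg5 moved to the fourth place, and Atg16l1 moved from the ninth to the sixth place in Atg5-KD. That choice moved 5 of the 10 levels by over 1.5 times. Atg16l1 then stood at 155 per kilobase in Atg5-KD and 139 in control, and Atg4b at 256 in Atg5-KD and 251 in control. Atg7 stood at 161 in Atg5-KD and 156 in control, Atg12 at 190.1 in Atg5-KD and 207 in control, and Atg3 at 319 in Atg5-KD and 293 in control. No source used here gives the annotation behind the deposited counts, so levels between genes are approximate.

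**Figure D4:**
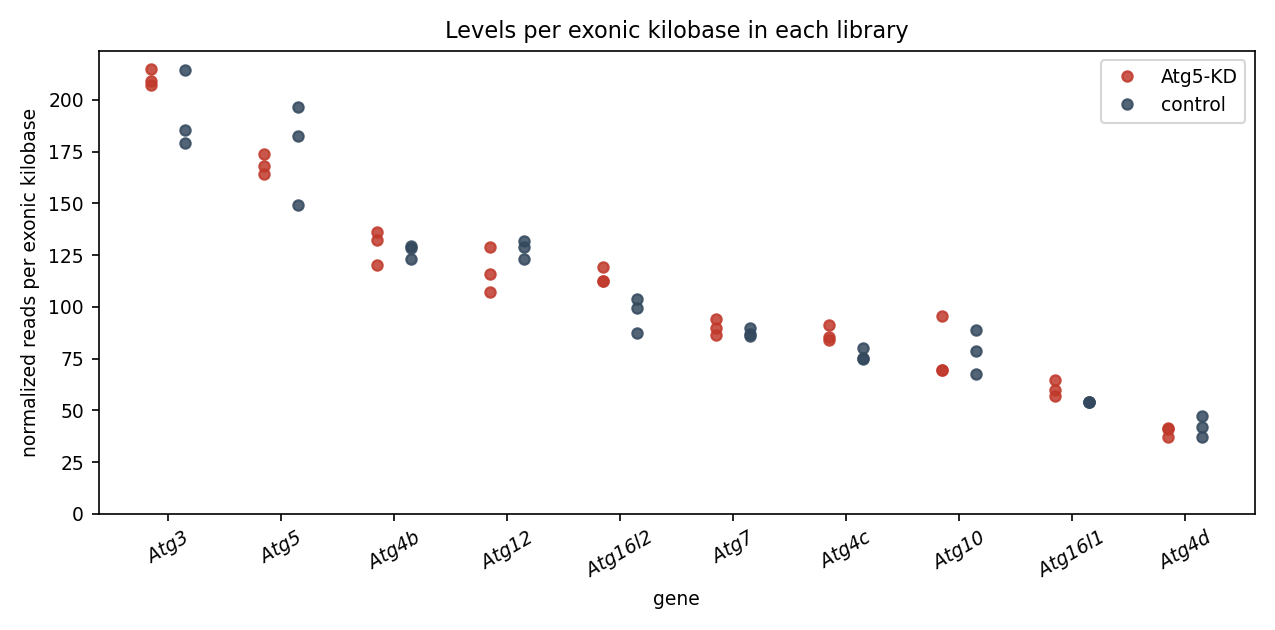
Normalized reads per exonic kilobase (vertical axis, from 0) of each gene in each library, Atg5-KD to the left of control, with genes in order of their Atg5-KD mean. Atg3 at 210.4 and Atg5 at 169 lead in Atg5-KD, and Atg4d at 39.8 is lowest.

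Called genes were also counted for other steps of autophagy around the conjugation system. The authors' deposited table called 10.4% of all tested genes higher and 10.5% lower. None of the lists below was tested against these shares. Of the 5 ATG8 genes, whose products the system attaches to membranes, 3 fell in the authors' deposited table. These were Map1lc3b at -0.32, Map1lc3a at -0.39 and Gabarapl1 at -0.28 on the log2 scale, with Wald adjusted p-values of 0.00482, 0.0141 and 0.0324. The median log2 fold change of the 5 was -0.28 in the authors' deposited table. Scaling to all reads moves every gene by the same -0.30, and on that scale 38.7% of all genes were called lower and 3.6% higher, against which the counts of this and the following lists are to be read. All 5 ATG8 genes were called lower on that scale. With the trend over GC content and length removed, which called 7.23% of genes lower and 6.44% higher, 1 was called, Map1lc3b, lower.

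Of 10 receptors that link cargo to ATG8 proteins, 3 rose in the authors' deposited table and none fell: Ncoa4, the ferritin receptor, at 0.49 on the log2 scale, Sqstm1, which encodes p62, at 0.34, and Nbr1, which resembles p62, at 0.38. Scaled to all reads, the list had 0 higher and 3 lower, and Ncoa4, Nbr1 and Sqstm1 were not called. Its median was then -0.12, against -0.29 over all tested genes. With the trend removed, Ncoa4, Nbr1 and Sqstm1 were the 3 called, all higher.

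In the ULK kinase complex, which starts autophagy, 1 of 5 rose in the authors' deposited table, Rb1cc1 at 0.48, and Ulk1, the gene of highest base mean, stood at -0.33 (Wald adjusted p = 0.0581). Among 7 genes of the lipid kinase complex 0 were called in the authors' deposited table (1 at an unadjusted p under 0.05), with Becn1, of highest base mean, at -0.06. For 10 genes of membrane supply the authors' deposited table had Atg2b, a lipid transfer protein, higher at 0.36, and Atg9a, a lipid scramblase, and Wipi1 lower at -0.35 and -0.29, while Vmp1, of highest base mean, was at 0.00. Epg5, a tether for fusion with the lysosome, was the 1 gene of 7 in its list that rose in the authors' deposited table, at a log2 fold change of 0.87 (Wald adjusted p = 2.22e-08), and Rab7, of highest base mean there, was at -0.01. Scaled to all reads, the kinase complex had 2 lower and 0 higher, the lipid kinase complex 3 lower and 0 higher, membrane supply 6 lower and 0 higher, and fusion 4 lower and 1 higher, the last being Epg5. Without the trend, fusion kept its 1 higher gene and the other 3 lists had 0 called. Tecpr1, which binds the conjugate at lysosomes, stood at -0.10 by the authors' deposited table (Wald adjusted p = 0.576), and was called lower at -0.40 when scaled to all reads.

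The matching enzymes of other ubiquitin-like proteins gave a contrast in the same libraries. Of 9 E1 subunits, Uba7, the E1 of the interferon-induced modifier ISG15, rose 3.86-fold in the authors' deposited table (log2 fold change 1.95, standard error 0.18, Wald adjusted p = 2.15e-26), where Atg7 stood at 1.03-fold. Uba6, an E1 of ubiquitin and FAT10, rose 1.45-fold in the authors' deposited table, and Uba1, of highest base mean, was at 0.99-fold. Of 5 E2 enzymes, Ube2l6, the E2 of ISG15, rose 4.49-fold (Wald adjusted p = 3.43e-22 in the authors' deposited table), where Atg3 stood at 1.09-fold and Atg10 at 1.00-fold. Scaled to all reads, Uba7 and Ube2l6 were the only E1 and E2 genes of these lists called higher, and 5 of the 9 E1 and 4 of the 5 E2 genes were called lower. Without the trend over GC content and length Uba7 and Ube2l6 were again called higher and Uba6 was not. The differences between these enzymes and those of the conjugation system were not tested.

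As background, the ATG5-ATG12 conjugate has been reported in mouse cells to bind the RNA sensor RIG-I and its adaptor MAVS and to lower interferon production. Ddx58, which encodes RIG-I, rose 8.71-fold and Ifih1, which encodes the sensor MDA5, rose 9.87-fold in the authors' deposited table, where Mavs stood at 0.90-fold (Wald adjusted p = 0.337). Scaled to all reads, Ddx58 and Ifih1 were called higher and Mavs lower. Neither Atg5, at -0.06, nor Atg12, at -0.12, passed the Wald test of the authors' deposited table beside them. Scaling to all reads moves every gene by -0.30 and called 38.7% of all tested genes lower. On that scale Atg5 and Atg12 were called lower, at -0.36 and -0.42. Any link between them and the sensors was not tested.

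**Figure D5:**
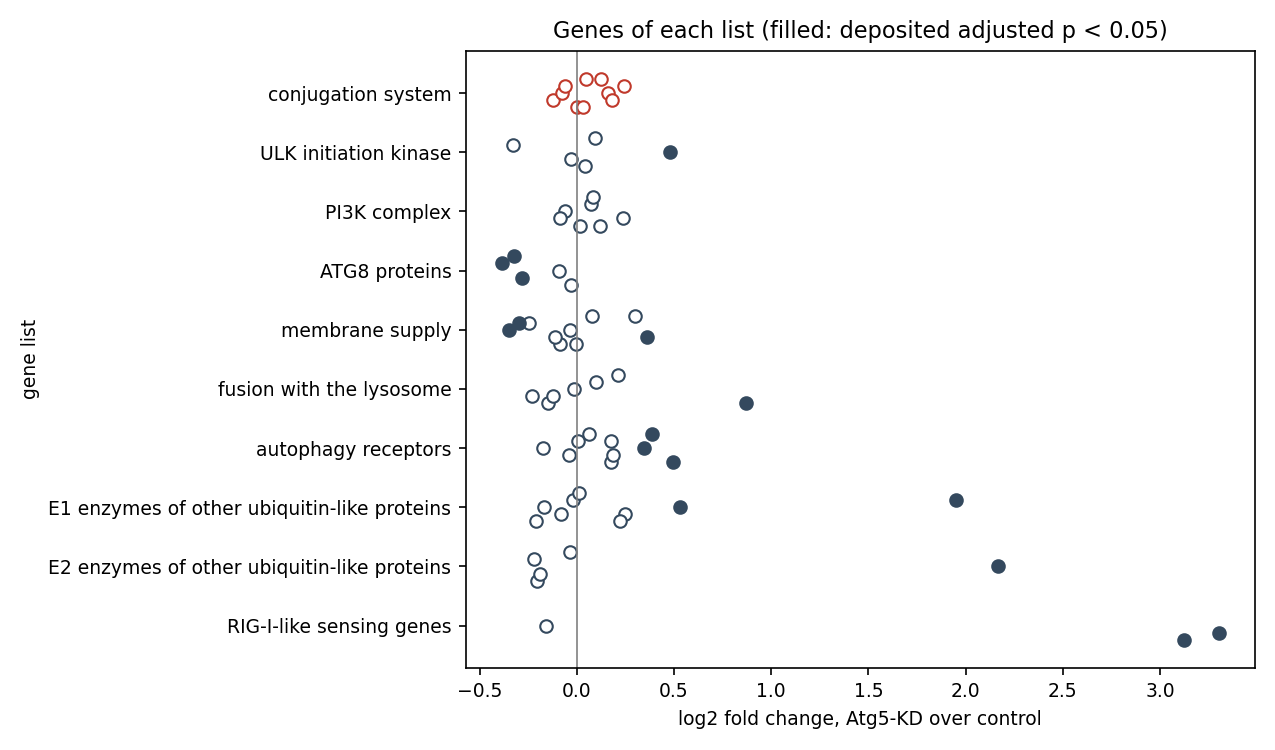
Log2 fold change of Atg5-KD over control (horizontal axis) of every gene in each list, with the conjugation system at the top; filled points have a deposited adjusted p under 0.05. The 10 conjugation genes are all open and lie between -0.12 and 0.24, while Uba7 at 1.95, Ube2l6 at 2.17 and the sensors Ddx58 and Ifih1 at 3.12 and 3.30 stand far to the right.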

How the data were processed

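RNA of 3 Atg5-KD and 3 control libraries of cumulus granulosa cells was sequenced. Tools listed in the submitters' processing notes, with no role or order, are DESeq2 1.30.1, StringTie 2.1.4, featureCounts 1.6.2 and STAR, with mm10 as the build. The base mean is a signal deposited by the authors, the mean of counts divided by size factors. The log2 fold change and its standard error were deposited by the authors on the log2 scale, the authors also deposited a Wald score, and raw and adjusted p-values stand as the authors deposited them. Of 24982 rows, 14835 have an adjusted p, and 0 of them differed from a recomputed Benjamini-Hochberg adjustment at a tolerance of 1e-06. A gene was called at an adjusted p under 0.05 over all tested rows, which corresponds to a Wald statistic of 2.56.

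Whole reads per library were derived from the base mean, printed to about 15 digits: sets of counts within 45% of the group mean were kept if they gave the base mean within rounding and, in a negative binomial fit at the deposited standard error, the deposited log2 fold change within 1e-06. In simulated data with base means of 100 to 500, 60 of 60 genes came back exactly. Of 64 other rows of the table with a base mean of 100 to 105, 62 gave a single set and the other 2 gave none. Atg12, Atg16l1, Atg16l2, Atg7, Atg3 and Atg4b have base means above these ranges, so neither check covers them. For Atg4b 1978 sets gave the base mean and 1 also gave the fold change, which the next set missed by 1.07e-05. Normalized counts are those reads over the size factors. The quasi-likelihood test planned for counts was not run, since counts were derived for these genes alone. Leaving out a library held the authors' size factors and dispersion, and a call then used the deposited limit on the unadjusted p, 0.01045.

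Alternatives were adjustment over all rows with a p-value, a base mean of at least 50, thresholds of 0.1 and 0.01, centring on the median, scaling to the estimated total of all reads, and removal of the trend over GC content and length (robust regression on splines, GENCODE M21, 99.2% of tested rows matched). Named genes are the 10 members and, of each list, the called genes and the one of highest base mean, except 1 gene that is not reported here. Atg4a, Mavs, Cyp19a1, Cyp17a1, Amh and the genes that overlap members fall outside this rule and were chosen with their values known. The members and lists were chosen with earlier results of these data known. Analyses used Python 3.11.15, numpy 2.4.6, scipy 1.17.1 and statsmodels 0.14.6.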

Additional observations from a re-analysis of the deposited data

How the results depend on the processing

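The authors' deposited table called 0 of the 10 genes higher and 0 lower. Both counts stayed at 0 with p-values adjusted over every row with a p-value, with a base mean of at least 50, with a threshold of 0.01, with fold changes centred on the median, and with any 1 of the 6 libraries left out (lowest and highest count 0). At a threshold of 0.1 the number called higher was 1, Atg16l2. With the trend over GC content and length removed it was also 1, Atg16l2, where 6.44% of all genes were called higher. Scaled to all reads, which moves every gene by -0.30 and called 38.7% of all genes lower, the number called lower was 4, with Atg5 at -0.36 and Atg4b, at 0.03 as deposited, at -0.27, a turn of sign that the common shift gives by construction. With 1 library left out, the log2 fold change of Atg5 ran from -0.17 to 0.03, that of Atg16l2 from 0.18 to 0.30 and that of Atg10 from -0.17 to 0.10. The cause of the shifts other than that of the common scale was not tested. The sample labels give both groups the same replicate numbers, and whether these mark pairs is not stated. No paired analysis was possible because the deposited columns and the derived counts carry no replicate number. With 3 libraries a group, estimated falls of under 16.4% to 30.6%, depending on the gene, would not have been called. The length measure for levels per kilobase was chosen after seeing the data.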
